A study of Homo sapiens with 4 samples.

Results

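Levels of 50 genes for enzymes and complexes that write, erase or read histone marks, move nucleosomes or methylate DNA were examined in human fibroblasts with induced RAS, the setting of oncogene-induced senescence. The genes were taken by symbol from a list drawn up with earlier results of these data known, and all 50 were found among the 12033 genes of the deposited table. BJ-indRAS G12V cells, skin fibroblasts immortalized with hTERT, carry a RAS G12V oncogene that is switched on by 4-hydroxytamoxifen (4-OHT). Every culture had received 4-OHT for 14 days, so each of the 4 libraries comes from cells with induced RAS, and no library of uninduced cells was analysed here. The cells differed in the CRISPR guide they carried. The sgRNA-NT guide is a non-targeting control. A pair of guides, sgRNA-AP1-69 and sgRNA-AP1-71, cut at the AP-1 site of the enhancer Enh AP1-OIS1, and sgRNA-FOXF1 targets the gene of the transcription factor FOXF1. Each condition had 1 library from a guide-transduced population, so there is no replicate error, no p-value is given, and the values compare these libraries. The comparisons address how loss of the enhancer's AP-1 site or of FOXF1 altered the transcriptome of the RAS-induced cells.

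DNA is wrapped around histones, and chemical marks on these proteins help to set which genes are read. Methyltransferases of the KMT2 and SETD1 families place methyl groups on a lysine of histone H3 (H3K4), a mark of promoters and enhancers, whereas the Polycomb repressive complex PRC2 methylates another lysine of that histone (H3K27) and keeps genes silent. Acetyltransferases such as EP300 and CREBBP open chromatin at enhancers, deacetylases and demethylases take marks away, and SWI/SNF and CHD complexes use ATP to slide or evict nucleosomes. Senescent cells are known for extensive rearrangement of their chromatin, and AP-1 is known to act on the enhancers of senescent fibroblasts.

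AP-1 and forkhead factors are the regulators that the guides concern, and the members' promoters were therefore searched for their motifs, TGACTCA and TGTTTAC, on both strands. RefSeq windows of the GRCh38.p14 assembly, from 250 bases before to 50 bases after a start site, were at hand for 43 members, 66 windows in all. TGACTCA was present in 2 of the 66 windows (3.03%) and in 3.58% of 13474 windows of genes in the table. TGTTTAC was also present in 2 windows (3.03%), against 2.49% of the windows of genes in the table. The matched stretches are shown because they are the only places where these letters occurred in the windows of the members, and capitals mark the motif, which reads as its reverse complement where it lies on the opposite strand.
SMARCA2, AP-1 motif on the strand of the gene, 11 bases after the start, chr9:2015346-2015374, plus strand: tgtactctgggTGACTCAgagagggaaga
SMARCB1, AP-1 motif on the opposite strand, 163 bases before the start, chr22:23786792-23786820, plus strand: aagccactgctTGAGTCAggacctcattg
NSD1, forkhead motif on the opposite strand, 88 bases before the start, chr5:177131699-177131727, plus strand: gaaggcagtgaGTAAACAgtccactgggg
EZH1, forkhead motif on the opposite strand, 39 bases after the start, chr17:42744991-42745013, minus strand: agggtgagtgaGTAAACAagcct
These 4 genes had unlike values. SMARCB1 was somewhat higher in each targeted library than under sgRNA-NT, whereas SMARCA2, NSD1 and EZH1 were lower, as given below. A match of letters is a description and shows no binding.

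Levels are RPKM, read counts scaled by transcript length and library size. They can be set side by side between genes as far as the lengths used fit the transcripts that the cells express. The values had been quantile-normalized over the libraries and raised to a floor of 1, so a listed 1.0 may stand for any lower level. FOXF1 itself was at 29.6 RPKM in the control, 11.1 under sgRNA-AP1-69, 7.8 under sgRNA-AP1-71 and 25 under sgRNA-FOXF1. Its mRNA was thus lower with the enhancer guides and near the control level with the guide to the gene, which need not lower the mRNA. All 12 fibroblast markers examined were in the table, with FAP at the floor in each library and DCN at the floor under sgRNA-NT, and their summed level ranged from 4095 under sgRNA-NT to 5679 RPKM under sgRNA-AP1-71. The 11 markers compared did not move together, with log2 ratios to sgRNA-NT from -1.50 (COL1A1 under sgRNA-AP1-71) to 2.51 (LUM under sgRNA-FOXF1), and 4, 4 and 1 of them were at least 1.5-fold lower and 2, 3 and 5 higher under sgRNA-AP1-69, sgRNA-AP1-71 and sgRNA-FOXF1. Of 6 epithelial, 6 haematopoietic and 5 endothelial markers, KRT8, KRT18 and CD14 were in the table. KRT8 and KRT18 summed to 80.5 RPKM under sgRNA-NT, 83.6 under sgRNA-AP1-71, 138 under sgRNA-FOXF1 and 144 under sgRNA-AP1-69, whereas CD14 lay between 6.0 and 9.8 RPKM. The 13 mitochondrial genome transcripts had median log2 ratios to sgRNA-NT of -1.02 under sgRNA-AP1-69, -1.54 under sgRNA-AP1-71 and -0.77 under sgRNA-FOXF1. Of the 13, 10, 10 and 9 were below the control in that order. MT-ND3 was above it, with log2 ratios of 0.37, 0.28 and 0.43. MT-CO1 and MT-CO2 had the same normalized value in every library. The part of these shifts in the values below was not tested. In whole cultures, fewer cells that express a gene and less of its RNA per cell cannot be told apart.

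The median level of the members was near that of all genes of the table in the control and below it in each targeted library. Their median was 4.0 RPKM in the control, 1.95 under sgRNA-AP1-69, 2.05 under sgRNA-AP1-71 and 2.6 under sgRNA-FOXF1. For all genes of the table it was 3.5 RPKM in each library. SMARCB1 was the highest member in each targeted library and CHD4 in the control. At the floor stood 5 of the 50 members under sgRNA-NT, 10 under sgRNA-AP1-69, 16 under sgRNA-AP1-71 and 9 under sgRNA-FOXF1. HDAC4, SIRT1, ARID1B and ARID2 were at 1.0 RPKM in each of the 4 libraries, and for them no difference can be given.

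**Figure D1:**
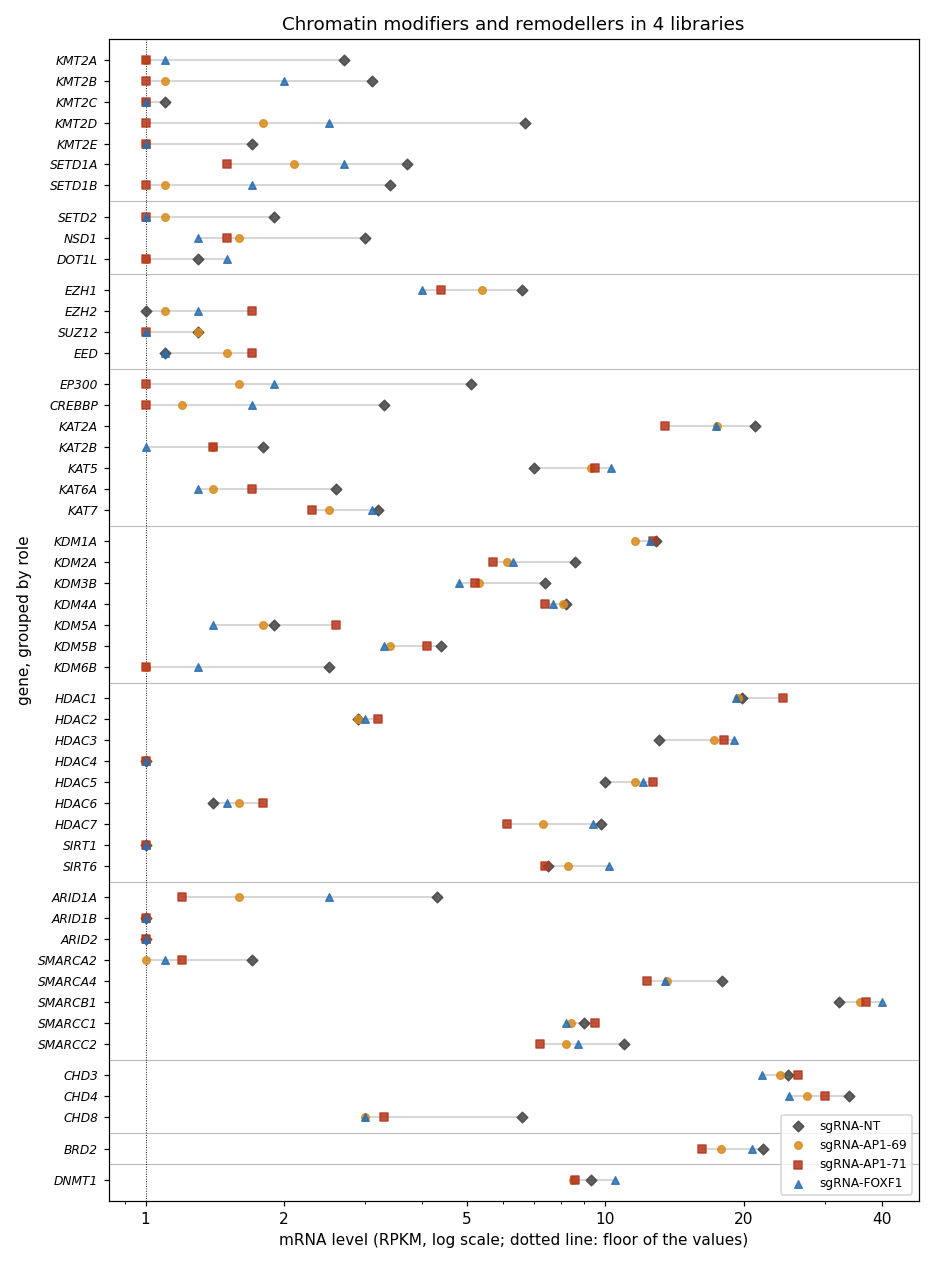
Level of each of the 50 members (RPKM on a log axis) in the 4 libraries, 1 point per library, with the genes grouped by role from H3K4 methyltransferases at the top to DNMT1 at the bottom and a dotted line at the floor of 1. KMT2D, EP300 and ARID1A spread widely with the grey sgRNA-NT diamond at the right (6.7, 5.1 and 4.3 RPKM), whereas KDM1A, KDM4A and CHD3 lie close together in the 4 libraries.

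Log2 ratios to sgRNA-NT were computed where the mean over the 4 libraries reached 2 RPKM, and 28 of the 50 members and 7589 genes in all met this limit. With sgRNA-AP1-69, 5 of the 28 members were at least 1.5-fold lower and 0 were at least 1.5-fold higher, against 9.92% of all genes compared that were lower and 8.17% that were higher. With sgRNA-AP1-71, 10 members were lower and 0 higher, against 14.7% and 14.0% of all genes. With sgRNA-FOXF1, 6 members were lower and 0 higher, against 13.2% and 11.6%. As shares of the 28 members, the lower ones made up 17.9%, 35.7% and 21.4%, each above the share of all genes. The median log2 ratio of the members was -0.30 under sgRNA-AP1-69, -0.31 under sgRNA-AP1-71 and -0.16 under sgRNA-FOXF1, beside 0.07, 0.08 and 0.05 for all genes compared. The limit on the mean removed 22 members, among them 7 with at least 2 RPKM in the control. KMT2D, EP300 and ARID1A met the limit only through their control values, since their means over the 3 targeted libraries were below 2 RPKM, and these 3 genes are among the lower members of each comparison. With a mean of 5 RPKM as the limit, 0, 5 and 2 of 20 members were lower, in the order of the guides above. Over all 50 members, 15, 19 and 17 were at least 1.5-fold lower, beside 8.39%, 12.0% and 11.3% of all genes of the table, and 0, 2 and 0 were higher, beside 6.12%, 10.8% and 9.39%. Of the 50, 10 had a control level below 1.5 RPKM and could not appear as 1.5-fold lower. The 3 comparisons share the sgRNA-NT library, so a deviation of that library would enter each of them.

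All 7 H3K4 methyltransferases were below their control level in each targeted library. KMT2D (GRCh37 chr12:49412758-49454577, minus strand), which marks enhancers with single methyl groups, was at 6.7 RPKM in the control, 1.8 under sgRNA-AP1-69, 1.0 under sgRNA-AP1-71 and 2.5 under sgRNA-FOXF1. It was therefore 3.72-fold lower under sgRNA-AP1-69, at least 6.7-fold lower under sgRNA-AP1-71, where it lay at the floor, and 2.68-fold lower under sgRNA-FOXF1. SETD1B, a catalytic subunit of the complex that trimethylates H3K4 at promoters, was at 3.4, 1.1, 1.0 and 1.7 RPKM in the same order. KMT2A, the MLL protein of leukaemia translocations, was at 2.7, 1.0, 1.0 and 1.1 RPKM. KMT2B, its closest relative, was at 3.1, 1.1, 1.0 and 2.0 RPKM. In each of these 4 genes the control value was the highest of the libraries and the sgRNA-AP1-71 value was at the floor. SETD1A (GRCh37 chr16:30968615-30995985, plus strand), the partner paralogue of SETD1B, was at 3.7, 2.1, 1.5 and 2.7 RPKM, or 1.76-fold, 2.47-fold and 1.37-fold lower. KMT2C, the paralogue of KMT2D, stood at 1.1 RPKM under sgRNA-NT and 1.0 in the other libraries, too close to the floor to be compared with it. Over all 7 genes of the role, 6, 6 and 5 were at least 1.5-fold lower with the respective guides sgRNA-AP1-69, sgRNA-AP1-71 and sgRNA-FOXF1, beside 8.39%, 12.0% and 11.3% of the table, and the larger shares among genes with coding parts as long as theirs are given below. Only KMT2D and SETD1A of the 7 reached a mean of 2 RPKM.

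The 3 methyltransferases of the H3K36 and H3K79 marks were weakly expressed, each with a mean below 2 RPKM. NSD1, which dimethylates H3K36, was at 3.0 RPKM in the control, 1.6 under sgRNA-AP1-69, 1.5 under sgRNA-AP1-71 and 1.3 under sgRNA-FOXF1. SETD2, which trimethylates H3K36 behind elongating RNA polymerase, was at 1.9, 1.1, 1.0 and 1.0 RPKM. For both, every targeted library lay below the control. DOT1L, the H3K79 methyltransferase, was at 1.3, 1.0, 1.0 and 1.5 RPKM, highest under sgRNA-FOXF1.

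PRC2 was represented mainly by EZH1 (GRCh37 chr17:40852293-40897067, minus strand), the catalytic subunit found in resting cells. EZH1 was at 6.6 RPKM in the control, 5.4 under sgRNA-AP1-69, 4.4 under sgRNA-AP1-71 and 4.0 under sgRNA-FOXF1, which is 1.22-fold, 1.5-fold and 1.65-fold lower. EZH2, the catalytic subunit of dividing cells, was at 1.0, 1.1, 1.7 and 1.3 RPKM. The level of EZH1 was thus at least 6.6 times that of EZH2 under sgRNA-NT, 4.91 times under sgRNA-AP1-69, 2.59 times under sgRNA-AP1-71 and 3.08 times under sgRNA-FOXF1. EED, the subunit that binds methylated H3K27, was at 1.1, 1.5, 1.7 and 1.1 RPKM, and SUZ12, the scaffold subunit, was at 1.3, 1.3, 1.0 and 1.0 RPKM. EZH2 and EED were the only members at least 1.5-fold above the control in any comparison, both under sgRNA-AP1-71, and both were below 2 RPKM throughout, where the rounding to 0.1 is a sizeable part of the level.

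Among the acetyltransferases, the large coactivators EP300 and CREBBP were below their control levels in each targeted library, while KAT5 was above its own. EP300 (GRCh37 chr22:41488596-41576081, plus strand), which acetylates H3K27 at active enhancers, was at 5.1 RPKM in the control, 1.6 under sgRNA-AP1-69, 1.0 under sgRNA-AP1-71 and 1.9 under sgRNA-FOXF1. This is 3.19-fold lower under sgRNA-AP1-69, at least 5.1-fold lower under sgRNA-AP1-71 and 2.68-fold lower under sgRNA-FOXF1. Its paralogue CREBBP was at 3.3, 1.2, 1.0 and 1.7 RPKM, so EP300 was above CREBBP in each library but that of sgRNA-AP1-71, where both were at the floor. KAT6A, an H3K23 acetyltransferase, was at 2.6, 1.4, 1.7 and 1.3 RPKM. KAT2B, of the SAGA and related coactivator complexes, was at 1.8, 1.4, 1.4 and 1.0 RPKM, whereas its paralogue KAT2A was the highest of the 7 acetyltransferases at 21.2, 17.5, 13.5 and 17.4 RPKM. For KAT2A, the sgRNA-AP1-71 value alone was at least 1.5-fold below the control. KAT5 (GRCh37 chr11:65479467-65487075, plus strand), the TIP60 acetyltransferase of DNA repair, went the other way, at 7.0, 9.3, 9.5 and 10.3 RPKM. All 3 targeted libraries lay above the control for KAT5, with log2 ratios of 0.41, 0.44 and 0.56, the highest mean log2 ratio of the 28 members compared.

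The histone demethylases had uneven ratios. KDM6B, which removes methyl groups from H3K27, was at 2.5 RPKM in the control, 1.0 under sgRNA-AP1-69, 1.0 under sgRNA-AP1-71 and 1.3 under sgRNA-FOXF1, so the targeted libraries were at or near the floor. KDM3B, an H3K9 demethylase, was at 7.4, 5.3, 5.2 and 4.8 RPKM, and KDM2A, an H3K36 demethylase that binds CpG islands, was at 8.6, 6.1, 5.7 and 6.3 RPKM. Both had higher levels in the control than in any targeted library, with log2 ratios between -0.62 and -0.45, and 1.5-fold was passed by KDM2A under sgRNA-AP1-71 (1.51-fold lower) and by KDM3B under sgRNA-FOXF1 (1.54-fold lower). For KDM5A, an H3K4 demethylase, the 4 values of 1.9, 1.8, 2.6 and 1.4 RPKM had the control between the guides, and its paralogue KDM5B was at 4.4, 3.4, 4.1 and 3.3 RPKM. KDM1A, the LSD1 enzyme, and KDM4A had ratios closer to 0, from -0.15 to -0.02.

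Of the 9 deacetylases, 0 were at least 1.5-fold lower under sgRNA-AP1-69, 1 (HDAC7) under sgRNA-AP1-71 and 0 under sgRNA-FOXF1. Of all genes of the table, 8.39%, 12.0% and 11.3% were lower. HDAC4, SIRT1 and HDAC6 had control levels below 1.5 RPKM and could not appear as 1.5-fold lower. HDAC3 (GRCh37 chr5:141000443-141016416, minus strand), a class I histone deacetylase of nuclear corepressor complexes, was at 13.1 RPKM in the control, 17.2 under sgRNA-AP1-69, 18.1 under sgRNA-AP1-71 and 19.0 under sgRNA-FOXF1. HDAC1, the most abundant of the 9, was at 19.8, 19.4, 24.3 and 19.2 RPKM, and its partner HDAC2 was at 2.9, 2.9, 3.2 and 3.0 RPKM. The level of HDAC1 was thus between 6.4 and 7.59 times that of HDAC2 in every library. This ratio rests on the lengths used, and the annotated transcripts differ, with 2118 nt for HDAC1 and 9737 nt for HDAC2. The class IIa enzymes, which move between nucleus and cytoplasm, had unlike values. HDAC7 was at 9.8, 7.3, 6.1 and 9.4 RPKM and HDAC5 at 10.0, 11.6, 12.7 and 12.1 RPKM, so the level of HDAC5 over that of HDAC7 went from 1.02 under sgRNA-NT to 2.08 under sgRNA-AP1-71. HDAC6, a tubulin deacetylase, lay between 1.4 and 1.8 RPKM, and SIRT6, a sirtuin of telomeric chromatin, was at 7.5 RPKM in the control and highest under sgRNA-FOXF1 at 10.2 RPKM.

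In SWI/SNF, ARID1A (GRCh37 chr1:27019727-27108595, plus strand), a DNA-binding subunit often lost in tumours, stood apart from the core subunits. It was at 4.3 RPKM in the control, 1.6 under sgRNA-AP1-69, 1.2 under sgRNA-AP1-71 and 2.5 under sgRNA-FOXF1, which is 2.69-fold, 3.58-fold and 1.72-fold lower. SMARCA4, the BRG1 ATPase, was at 17.9, 13.6, 12.3 and 13.5 RPKM, and the alternative ATPase SMARCA2 was at 1.7, 1.0, 1.2 and 1.1 RPKM. SMARCC2, a scaffold subunit, was at 11, 8.2, 7.2 and 8.7 RPKM, while its paralogue SMARCC1 was at 9.0, 8.4, 9.5 and 8.2 RPKM. The control was the highest library for ARID1A, SMARCA4, SMARCA2 and SMARCC2 but not for SMARCC1. SMARCB1, the core subunit lost in rhabdoid tumours, was at 32.2, 35.8, 36.9 and 39.9 RPKM, lowest in the control, with log2 ratios of 0.15, 0.20 and 0.31. Of all 8 subunits, 2 were at least 1.5-fold lower in each comparison, ARID1A together with SMARCC2 under sgRNA-AP1-71 and with SMARCA2 under the other guides. Of all genes of the table, 8.39%, 12.0% and 11.3% were lower under sgRNA-AP1-69, sgRNA-AP1-71 and sgRNA-FOXF1. SMARCA2 was at or near the floor in each targeted library, and ARID1B and ARID2, at the floor throughout, could not appear as lower.

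Of the CHD remodellers, CHD8 (GRCh37 chr14:21853353-21924285, minus strand), which binds beta-catenin, was at 6.6 RPKM in the control, 3.0 under sgRNA-AP1-69, 3.3 under sgRNA-AP1-71 and 3.0 under sgRNA-FOXF1. The 3 targeted libraries lay together, 2.2-fold, 2.0-fold and 2.2-fold below the control. CHD4, the ATPase of the NuRD repressor complex, was at 33.9, 27.5, 30.1 and 25.1 RPKM, and its paralogue CHD3 was at 24.9, 24, 26.2 and 21.9 RPKM. BRD2, a reader of acetylated histones, was at 22, 17.8, 16.2 and 20.8 RPKM. DNMT1, which copies DNA methylation after replication, was at 9.3, 8.5, 8.6 and 10.5 RPKM, with the control between the enhancer guides and sgRNA-FOXF1.

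**Figure D2:**
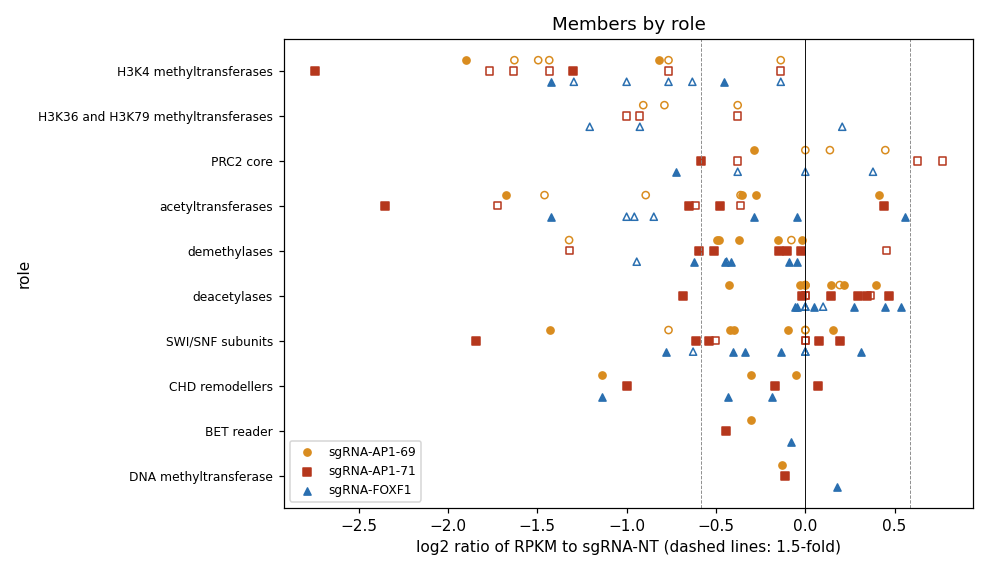
Log2 ratio of RPKM to sgRNA-NT for the 50 members by role, 1 point per gene and targeted library; filled points are the 28 members compared, open points the 22 with a mean below 2 RPKM, and dashed lines mark 1.5-fold. The points farthest to the left are KMT2D (-2.74) and EP300 (-2.35) under sgRNA-AP1-71, and no filled point lies to the right of the dashed line at higher values.

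Long and short transcripts were compared as planned for this set of genes, and many of the lower members encode very large proteins. Lengths were taken from the canonical transcript (GENCODE v44 on GRCh37), which need not be the form these cells express. The 28 members had a median transcript length of 5448 nt and a median coding length of 3341 nt, whereas the medians over all genes compared were 2902 nt and 1233 nt. When the members were split at 5448 nt, the 14 longer ones had a median log2 ratio of -0.44 and the 14 shorter ones of -0.08 under sgRNA-AP1-69. With sgRNA-AP1-71 these medians were -0.53 and -0.07, and under sgRNA-FOXF1 they were -0.44 and -0.04. The longer members were thus lower by 0.36, 0.46 and 0.40 on the log2 scale. The same split of all genes compared gave differences of -0.45, -0.49 and -0.50, at least as large as those of the members. The lengths on each side were unlike, however. Longer and shorter members had median lengths of 7926.5 and 4349.5 nt, and longer and shorter genes of 6902.5 and 2513 nt. Of the 14 longer members, 5 (35.7%), 6 (42.9%) and 5 (35.7%) were at least 1.5-fold lower, and of all 1224 genes of that length 28.4%, 35.5% and 36.1% were. Among the 14 shorter members, 0, 4 and 1 were lower, or 0%, 28.6% and 7.14%, beside 6.28%, 10.6% and 8.75% of the 6335 shorter genes. At the limit of 2 RPKM, the share of lower genes among the longer members was thus close to that of other genes of such length. Among the shorter members it was above that of the 6335 shorter genes under sgRNA-AP1-71. The longer lower members include KMT2D, EP300 and ARID1A, which met the limit only through their control values. With a mean of 5 RPKM as the limit, 20 members remained. The difference of longer minus shorter members, split at their own median, was then -0.12, -0.057 and -0.21. The 4 short members lower under sgRNA-AP1-71 were KAT2A, HDAC7, EZH1 and SMARCC2. Their lengths lay between 3000 and 6000 nt, a class in which 18.4% of 2685 genes were lower under that guide.

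The relation was graded over all genes compared, and among the members only up to 9000 nt. The 4 members up to 3000 nt were SIRT6, HDAC3, KAT5 and HDAC1, with median log2 ratios of 0.27, 0.37 and 0.49 for the guides in the order above, and the 3922 genes of this class had medians of 0.23, 0.25 and 0.22. The 12 members of 3000 to 6000 nt had medians of -0.28, -0.49 and -0.09, beside -0.08, -0.09 and -0.10 for 2685 genes. The 8 members of 6000 to 9000 nt had medians of -0.49, -0.55 and -0.54, beside -0.31, -0.32 and -0.38 for 722 genes. Above 9000 nt the order turned, and the 4 members had medians of -0.36, -0.29 and -0.23 beside -0.54, -0.58 and -0.56 for 230 genes. In that class KMT2D was the lowest member, whereas HDAC2 (9737 nt) and KAT7 (9514 nt), an acetyltransferase of histones H3 and H4 at 3.2, 2.5, 2.3 and 3.1 RPKM, have coding parts of only 1464 and 1833 nt, and the log2 ratios of these 2 genes lay between -0.48 and 0.14.

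**Figure D3:**
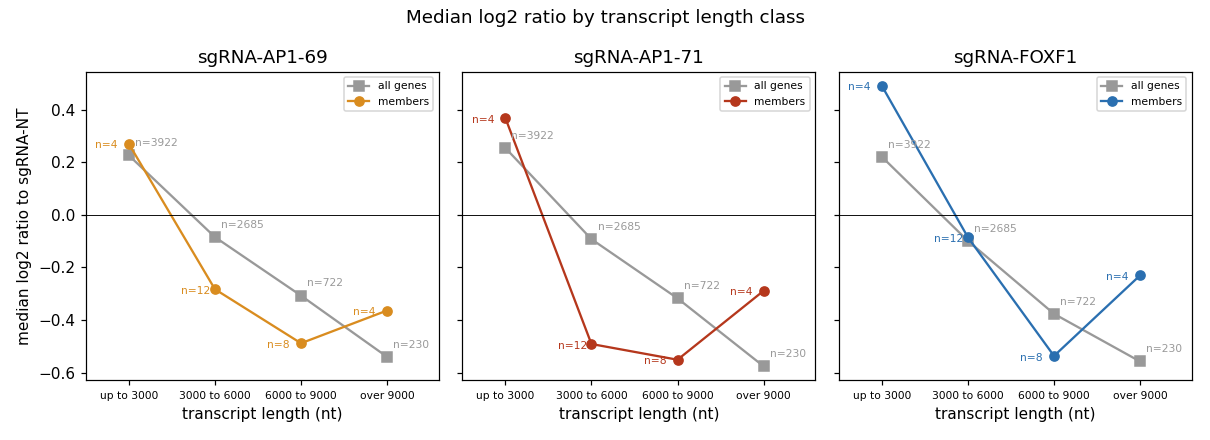
Median log2 ratio to sgRNA-NT in 4 classes of transcript length for the members (coloured circles) and for all genes compared (grey squares), with the number of genes beside each point and 1 panel per targeted library. All genes step down from about 0.23 to -0.54 under sgRNA-AP1-69, and the members follow up to 9000 nt and turn upwards in the last class, which holds 4 members.

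Coding length, a measure added after the data were seen, ranked with the members' ratios more closely than the whole transcript did. Across the 28 members, Spearman's rho of the log2 ratio with coding length was -0.74 under sgRNA-AP1-69, -0.64 under sgRNA-AP1-71 and -0.79 under sgRNA-FOXF1, and with transcript length it was -0.58, -0.41 and -0.60. Across 7377 genes with a coding sequence the corresponding values were -0.44, -0.41 and -0.32 with coding length and -0.50, -0.45 and -0.45 with transcript length. The points of these correlations are genes measured in the same libraries, which are not independent replicates, and longer members also had lower levels (rho of transcript length with mean RPKM -0.57). With coding parts above 6000 and up to 9000 nt there were EP300, ARID1A and CHD8, each of which was at least 1.5-fold lower in each comparison, as were 64.9%, 67.0% and 59.8% of the 97 genes of this class. KMT2D, with 16611 nt, was the only member above 9000 nt, a class in which 92.0%, 92.0% and 88.0% of 25 genes were lower. The class above 3000 and up to 6000 nt held 12 members, among them SETD1A (5121 nt), CHD3 (6000 nt) and CHD4 (5736 nt). Of the 12, 1 (8.33%), 3 (25%) and 1 (8.33%) were lower, beside 30.2%, 39.2% and 32.1% of 679 genes. The 5 lowest of the 28 members by mean log2 ratio thus had coding parts of at least 5121 nt. CHD3 and CHD4, also in that range, had log2 ratios between -0.43 and 0.07. Of the 5 lowest, KMT2D, EP300 and ARID1A met the limit of 2 RPKM only through their control values, so they could be compared only by being lower. They enter the correlations and classes above, and coding length was not examined at another limit on the mean. When the trend of all genes with transcript length was subtracted, the members' medians were -0.12, -0.063 and 0.024, and with coding length in its place they were 0.026, 0.13 and 0.078, so that the sign of the median turned in 1 comparison and in all 3, respectively. Whether length, level or another property carried the difference was not tested.

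**Figure D4:**
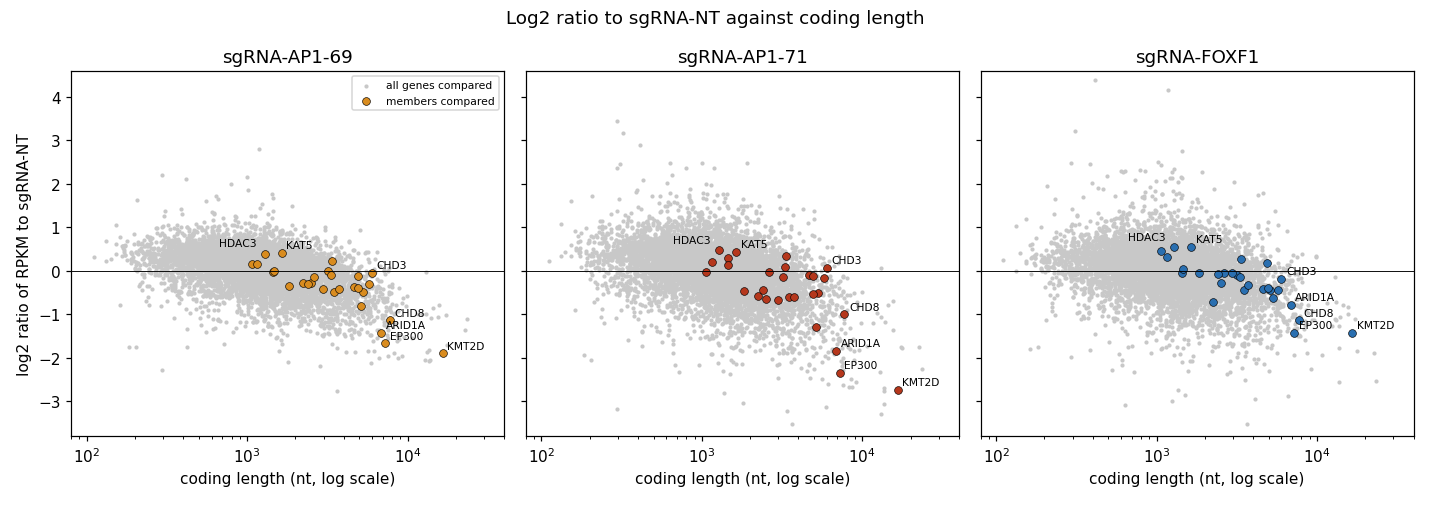
Log2 ratio to sgRNA-NT against coding length (nt, log axis) for the genes compared that have a coding sequence (grey) and the 28 members compared (coloured), 1 panel per targeted library. KMT2D at 16611 nt has ratios of -1.90, -2.74 and -1.42, EP300, ARID1A and CHD8 lie below -0.7 in each panel, and KAT5 and HDAC3 lie above 0.

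Both enhancer guides were directed at the same site, and their difference serves as a yardstick rather than an error. Between sgRNA-AP1-71 and sgRNA-AP1-69, the log2 differences of the 28 members had a standard deviation of 0.28, and that of all genes compared was 0.29. KMT2D and EP300 were below their sgRNA-AP1-69 level by at least 1.5-fold under sgRNA-AP1-71, at differences of -0.85 and -0.68, beside 2.85% of all genes. For both, the sgRNA-AP1-71 value was at the floor, so the differences may be larger. With the limit of 2 RPKM set on the mean of the 3 targeted libraries alone, KMT2D and EP300 dropped out and 0 of 25 members were lower, beside 2.67% of 7560 genes. Of the 28, 0 were at least 1.5-fold higher under sgRNA-AP1-71, beside 2.41% of all genes, and HDAC1 had the highest difference at 0.32.

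The comparison of sgRNA-FOXF1 with the mean log2 level of both enhancer guides does not use the control library, apart from its part in the limit on the mean. Of the 28 members, 4 were at least 1.5-fold higher under sgRNA-FOXF1, beside 5.85% of all genes compared, and 0 were lower, beside 3.53%. The 4 were KMT2D (log2 difference 0.90), ARID1A (0.85), SETD1A (0.61) and EP300 (0.59), all of them genes with lower values than the control in each targeted library. KMT2D and EP300 were at the floor under sgRNA-AP1-71, so their differences may be larger. With the limit set on the mean of the 3 targeted libraries alone, an alternative chosen after seeing the data, KMT2D, ARID1A and EP300 dropped out, and SETD1A was the only 1 of 25 members that was at least 1.5-fold higher, beside 5.71% of genes. The lowest were EZH1 at -0.29, CHD4 at -0.20 and CHD3 at -0.20, none of which reached 1.5-fold. GC content of the transcript moved with this difference, with Spearman's rho of 0.54 over the 28 members and 0.60 over 7559 genes. KMT2D (59.8% GC), ARID1A (57.5%) and SETD1A (62.6%) were above the members' median of 53.2%, and EP300 (49.8%) was below it. The part of GC content in the difference was not tested.

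**Figure D5:**
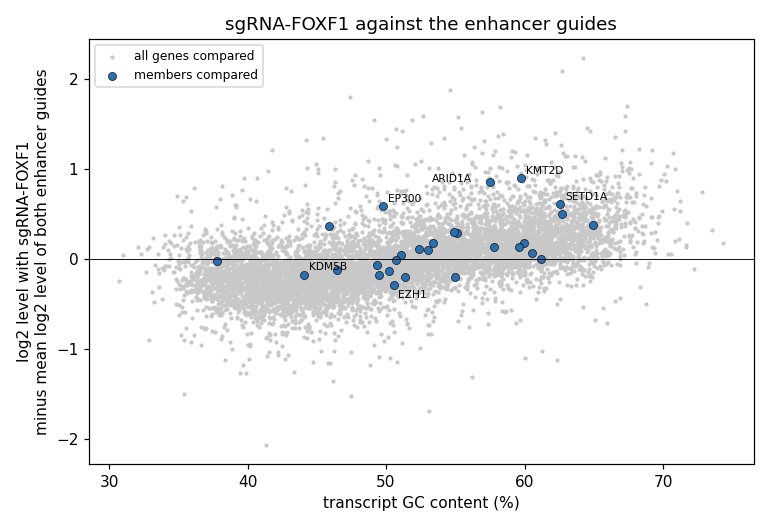
Log2 level under sgRNA-FOXF1 minus the mean log2 level of both enhancer guides, against the GC content of the transcript (%), for all genes compared (grey) and the 28 members compared (blue). Values climb with GC content among members and other genes, KMT2D, ARID1A, SETD1A and EP300 lie at 0.59 or above, and EZH1 is the lowest member at -0.29.

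A wider list of 214 other chromatin genes held subunits and relatives of the same complexes, of which 200 were in the table and 126 were compared. Of the 126, 10, 16 and 17 were at least 1.5-fold lower and 7, 13 and 8 higher under sgRNA-AP1-69, sgRNA-AP1-71 and sgRNA-FOXF1. Of the list, the lower ones were 7.94%, 12.7% and 13.5%, beside 9.92%, 14.7% and 13.2% of all genes, and the higher ones 5.56%, 10.3% and 6.35%, beside 8.17%, 14.0% and 11.6%. Their median log2 ratios were -0.0048, 0.07 and 0.06, close to those of all genes and above those of the members. This list was not matched to the members for length, and the part of length in that difference was not tested. Among the lowest by mean log2 ratio was HCFC1, a subunit of the SETD1 complexes, at 11 RPKM in the control, 4.9 under sgRNA-AP1-69, 3.0 under sgRNA-AP1-71 and 6.3 under sgRNA-FOXF1. TRRAP, the scaffold of the KAT5 complex, was at 6.4, 3.2, 2.8 and 3.8 RPKM. Their coding lengths of 6105 and 11619 nt were in the range of the lowest members. At the other end were SMYD3, a lysine methyltransferase, at 3.1, 5.6, 5.3 and 6.8 RPKM, TADA3, a SAGA subunit, at 22.9, 39.2, 41.4 and 48.4 RPKM, and MSL3, of an H4K16 acetyltransferase complex, at 1.7, 2.6, 3.2 and 2.6 RPKM. Their coding lengths were 1284, 1296 and 1563 nt. Across the 126 genes, Spearman's rho of the log2 ratio with transcript length was -0.69, -0.61 and -0.66. With coding length it was weaker, at -0.48, -0.45 and -0.35, unlike in the members, where coding length ranked more closely.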

How the data were processed

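RNA was sequenced from 4 cultures, 1 per condition. The authors aligned 65 bp single reads to hg19 with TopHat2, counted them per gene with HTSeq-count and turned these counts into RPKM by GENCODE v25 gene models. Versions of the tools, and whether counting used strand, are not stated in the sources used here. The deposited RPKM values are quantile-normalized, to 1 decimal, with a floor of 1. Depth is unknown, since no counts were used here, so no interval is given. The 3 log2 ratio columns of the authors hold their own comparisons and were not used. The study's methods and the sample labels name different RNA reagents and library kits.

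Log2 ratios of RPKM were computed without a pseudocount where a gene's mean over the libraries was 2 RPKM or more. Counts of members past 1.5-fold stand beside the share of all genes past it. Members and lists were chosen with earlier results of these data known. Values are given for up to 4 members per role that have the largest mean absolute log2 ratio, for the 3 highest members by mean log2 ratio, those that differ most between sgRNA-FOXF1 and the enhancer guides, their paralogues, PRC2 subunits and some abundant members, and the 3 highest and lowest other chromatin genes, of which 1 is not reported here. KAT7, SIRT6 and SMARCB1 fell outside this rule and were chosen after their values were seen.

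Gene positions, lengths and GC content come from canonical transcripts of GENCODE v44 on GRCh37, in which 12012 of 12033 genes were found. Promoter sequences are from RefSeq (GRCh38.p14). Alternatives were a pseudocount of 1, no limit or 5 RPKM, centring, a 2-fold rule, means, spline corrections (5 knots) for length or GC content, and other length splits. The spline was tested on simulated data. Python 3.11.15, numpy 2.4.6, pandas 2.3.3, scipy 1.17.1 and matplotlib 3.10.9 were used.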

Additional observations from a re-analysis of the deposited data

How the results depend on the processing

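The values below are in the order sgRNA-AP1-69, sgRNA-AP1-71, sgRNA-FOXF1 where 3 are given. The members' median log2 ratio became -0.26, -0.26 and -0.15 with a pseudocount of 1 RPKM, -0.36, -0.38 and -0.21 when centred on the median of all genes, -0.37, -0.46 and -0.26 as a mean, and -0.33, -0.34 and -0.26 after correction for GC content. Without the limit on low values it was -0.30, -0.38 and -0.31 over 50 members, with 15, 19 and 17 members lower and 2 higher with sgRNA-AP1-71, and with a mean of at least 5 RPKM it was -0.14, -0.13 and -0.086 over 20 members, with 0, 5 and 2 lower. At 2-fold, 5 members were lower with sgRNA-AP1-71 and 3 with sgRNA-FOXF1. Correction for transcript length left medians of -0.12, -0.063 and 0.024, the last of them reversed, with 5 members lower and 2 higher with sgRNA-AP1-71, and 2 lower and 1 higher with sgRNA-FOXF1. Correction for coding length, an alternative chosen after seeing the data, reversed all 3 medians, to 0.026, 0.13 and 0.078, with 3, 3 and 2 members lower and 1, 4 and 2 higher. These corrections subtract the trend of all genes with length.

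The difference of long minus short members kept its sign in every alternative run. It was -0.67 with sgRNA-AP1-69 and -0.57 with sgRNA-FOXF1 without the limit, -0.12, -0.057 and -0.21 with a mean of at least 5 RPKM, and -0.60, -0.86 and -0.80 when split at the median length of all genes. With sgRNA-AP1-71 it was -0.53 with the longest annotated transcript and -0.55 when split at the median coding length, also chosen after seeing the data. Of the log2 ratios of named members, 60 of 84 moved by more than 0.21 (the SD of the log2 difference between the enhancer guides over all genes, divided by the square root of 2) under correction for transcript length, 12 with the pseudocount and 0 with centring, and of those past 1.5-fold 0 reversed. With the limit set on the mean of the 3 targeted libraries alone, also chosen after seeing the data, 0 members were lower under sgRNA-AP1-71 than under sgRNA-AP1-69 and 1 was higher under sgRNA-FOXF1 than under the enhancer guides. Members lower in all 3 targeted libraries were not counted under the other settings, since the comparisons share the sgRNA-NT library. No paired analysis was possible because each condition had 1 library, and no replicate could be left out. The floor of 1 RPKM limits every ratio of a weakly expressed member.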
